A study of Homo sapiens with 6 samples.

Results

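The genes described here are 10 parts of the YAP and TEAD pathway: the co-activators YAP1 and WWTR1 (the gene of TAZ), their DNA-binding partner TEAD1, and 7 target genes, CCN1 (older name CYR61), CCN2 (older name CTGF), ANKRD1, AMOTL2, AJUBA, LATS2 and AXL. They were chosen by name, with earlier results of these data known. All 10 matched a row among the 60107 gene IDs of the count table, and all 10 passed the filter on low counts, which left 22613 genes. They were measured by mRNA sequencing in H9, an established line of human embryonic stem cells, after directed differentiation to nephron progenitors, the cells from which the filtering units of the kidney arise. Both groups were the same line under the same differentiation protocol, collected at day 9: 3 libraries from complete medium with glutamine, and 3 from medium that lacked glutamine from day 0. Glutamine is an amino acid that supplies cells with carbon and nitrogen.

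YAP and TAZ bind no DNA themselves and act through the TEAD factors. When the Hippo kinases MST1/2 and LATS1/2 are active, they phosphorylate YAP and TAZ, which are then held in the cytoplasm or degraded. When the kinases are inactive, for example in cells under tension or on a stiff surface, YAP and TAZ enter the nucleus and raise transcription of genes such as CCN1, CCN2 and ANKRD1. Several targets, among them LATS2, AMOTL2 and AJUBA, encode regulators of the pathway itself. YAP activity is set largely at the protein level, which RNA counts do not measure, and YAP has been tied to the fate of nephron progenitors.

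The TEAD factors recognise the letters GGAATG, and the stretches upstream of the RefSeq start of CCN2 and ANKRD1, the 2 members with the largest differences reported below, are shown for that motif. Capitals mark each GGAATG match. The first lies at chr6:131951374-131951622 on the minus strand, the second at chr10:90921277-90921337 on the minus strand. The third, a short site around the match 128 bases before the ANKRD1 start, lies at chr10:90921200-90921225 on the minus strand. All are on GRCh38.p14, 5′ to 3′.
CCN2: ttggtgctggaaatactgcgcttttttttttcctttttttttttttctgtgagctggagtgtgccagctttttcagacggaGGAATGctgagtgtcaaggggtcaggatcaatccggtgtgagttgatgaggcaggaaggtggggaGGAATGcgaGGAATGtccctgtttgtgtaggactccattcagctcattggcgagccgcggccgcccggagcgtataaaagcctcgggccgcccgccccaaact
ANKRD1 upstream: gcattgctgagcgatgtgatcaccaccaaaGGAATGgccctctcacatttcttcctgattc
ANKRD1 site: cactgagtctGGAATGaaaattcacc

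The RefSeq promoter table (250 bases before to 50 bases after a start, 300 in all) held 12 windows for 8 of the 10 members. CCN1 and TEAD1 had none. GGAATG, searched on both strands, was found in 7 of the 12 windows, against 14.0% of all 35116 windows of that length. At least 1 window of 7 members held a match, and the members were chosen as parts of this pathway. The CCN2 window held 3 matches, 169, 104 and 95 bases before the start, and 0.128% of all windows held 3 or more. ANKRD1 held 2, 220 and 128 bases before the start, where 1.37% of all windows held 2 or more. The second ANKRD1 match and the AMOTL2 and AJUBA matches named next lie inside exons of their own genes in GENCODE 29, so they are not upstream of every annotated start. A single match stood in windows of AMOTL2, AJUBA, LATS2, AXL and YAP1, and neither WWTR1 window held one. The LATS2 match began 9 bases after the RefSeq start, so it is not upstream of it. AMOTL2, AJUBA and AXL each had another window with no match. The AMOTL2 match is on the opposite strand, 69 bases before the start, at chr3:134374511-134374516. The stretch around it, at chr3:134374501-134374526 on the minus strand, is shown because AMOTL2 is a target whose level did not separate the groups.
AMOTL2 site: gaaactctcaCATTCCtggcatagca

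The AP-1 letters TGANTCA (both strands) were found in 1 member window, that of ANKRD1, 195 bases before the start and touching an exon of ANKRD1 in GENCODE 29, against 7.71% of all windows. A CArG box, the site of the serum response factor SRF, was found in no member window, against 1.29% of all windows. A match is a description of letters, not of binding, which was not measured here.

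The libraries held between 78220507 and 84746566 counts, and the 10 genes together took 76307 to 101310 of them. Replicate 1 with glutamine stood apart: across all genes (no independent replicates), its log2 CPM had a Pearson's r of 0.9758 and 0.9762 with its own group, against 0.9908 to 0.9927 with the other group. The tests of the members are therefore given with and without that library. Nothing states that the 3 libraries of a group came from separate cultures, so p-values measure only the spread between these libraries. The headings of the count columns name days 0 and 9 although every sample is labelled day 9, and the assignment of columns to groups rests on the sample descriptions. Of the labelled cell type's markers, WT1 was at 225 to 390.0 CPM (library-scaled counts, with TMM factors), EYA1 at 131 to 222, SALL1 at 112 to 170 and SIX2 at 6.57 to 34.8 over the 6 libraries, while HOXD11 was at 0 to 0.542 CPM with glutamine and 3.22 to 6.05 without. The pluripotency gene NANOG had at most 0.0128 CPM.

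In the comparison without against with glutamine, the targets CCN2, ANKRD1 and CCN1 had 2.16 to 4.12 times the mean level without glutamine, while YAP1 and TEAD1 were at 0.934 and 0.9746 times. AJUBA, LATS2 and WWTR1 were 1.29 to 1.48 times as high without glutamine, AXL was at 0.801 times, and AMOTL2 at 1.04 times. With edgeR's quasi-likelihood test none of the 10 had a Benjamini-Hochberg adjusted p under 0.05, where 0.00442% of all genes did (1 of 22613). The smallest adjusted p among the 10 was 0.068. At an unadjusted p under 0.05 edgeR had 7 of the 10, 6 higher and 1 lower without glutamine, against 29.7% of all genes (14.7% higher and 15% lower).

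The call depended on the tool and on 1 library. DESeq2 called 7 of the 10, 6 higher and 1 lower, at an adjusted p under 0.05, against 14.4% of the genes it adjusted over (7.75% higher and 6.63% lower). Limma-voom called 0 of the 10 and 0% of all genes, with 7 of the 10 (6 higher and 1 lower) at an unadjusted p under 0.05, against 31.2% of all genes (17.2% higher and 13.9% lower). With replicate 1 with glutamine left out, edgeR called the same number, 6 higher and 1 lower, against 41.3% of all genes (22.3% higher and 19% lower). In all 6 libraries the groups did not overlap for 7 of the 10 (6 higher and 1 lower), against 34.2% of all genes (17.3% higher and 16.9% lower). With replicate 1 with glutamine left out this held for 8 of the 10 (6 higher and 2 lower), against 63.3% of all genes (32.3% higher and 31.1% lower). The median log2 fold change was 0.42 over the 10 and 0.0012 over all genes tested, and without replicate 1 with glutamine it was 0.51 and 0.0078. These are bulk libraries, so a change in the number of cells of a type and a change in RNA per cell cannot be told apart.

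**Figure D1:**
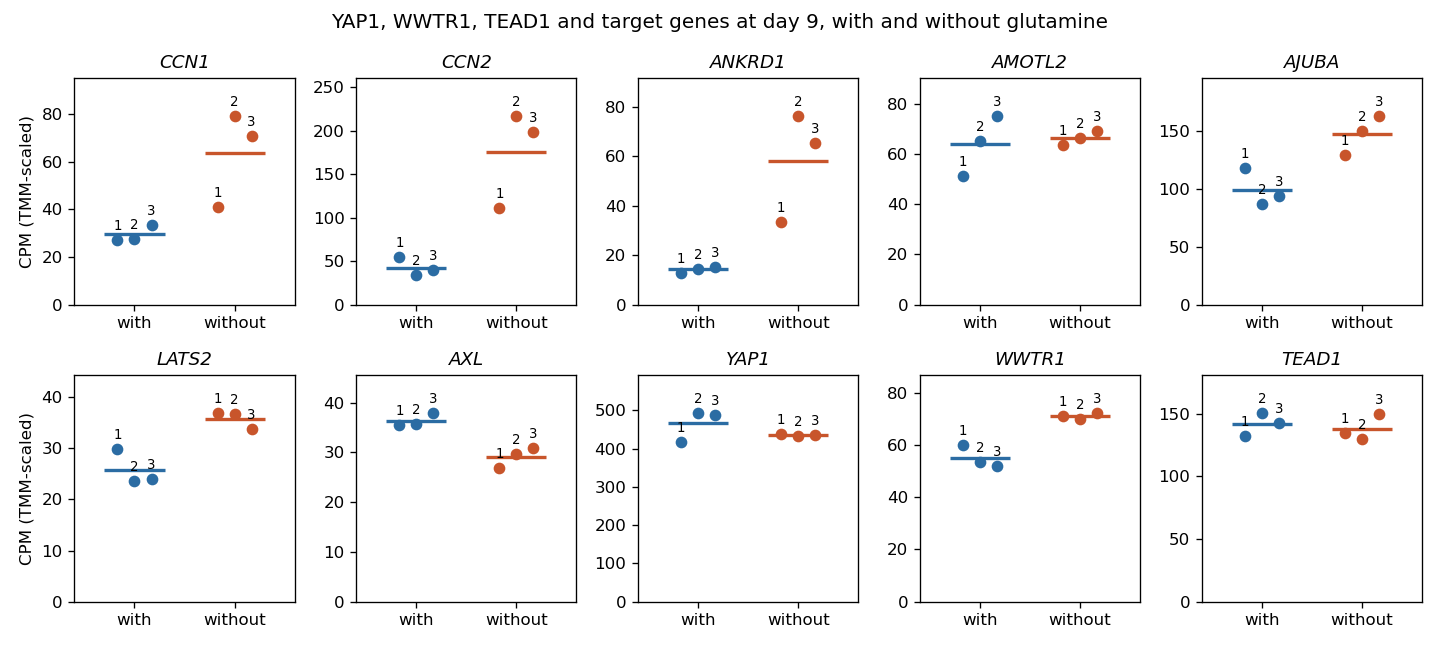
Level of each gene in each library in CPM after TMM scaling (vertical axes start at 0), with the 3 libraries with glutamine in blue and the 3 without in orange; numbers are replicates and lines are group means. In CCN1, CCN2 and ANKRD1 replicate 1 without glutamine lies between the libraries with glutamine and the other 2 without, and YAP1, TEAD1 and AMOTL2 overlap between the groups.

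CCN2, or connective tissue growth factor, is a secreted matrix-associated protein and the most widely used readout of YAP and TEAD activity. It is found on chromosome 6 from 131948176 to 131951373, minus strand (ENSG00000118523, GENCODE 29 on GRCh38), and its upstream stretch is the 3-match sequence printed above. With glutamine it was at 55.05, 33.6 and 39.25 CPM in replicates 1, 2 and 3, and without glutamine at 111, 217 and 199 CPM. Every library without glutamine was above every library with it, and the lowest of them, replicate 1, stood well below the other 2. The means were 42.6 ± 11.1 and 176 ± 56.5 CPM (SD, n = 3), for a log2 fold change of 2.04 (edgeR adjusted p 0.068, SE 0.29) or 4.12-fold with a 95% interval of 2.58 to 6.58. Without replicate 1 with glutamine the log2 fold change was 2.27 (edgeR adjusted p 8.5e-05, SE 0.25).

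ANKRD1 encodes an ankyrin repeat protein of the nucleus and the muscle sarcomere and is a second standard YAP readout. It is found on chromosome 10 from 90912096 to 90921276, minus strand (ENSG00000148677). Its level was 12.8, 14.5 and 15.3 CPM with glutamine and 33.2, 76.2 and 65.3 CPM without. The libraries with glutamine were close together, replicate 1 included, and replicate 1 without glutamine was again the lowest of its group. The means were 14.2 ± 1.27 and 58.2 ± 22.4 CPM (SD, n = 3), for a log2 fold change of 2.03 (edgeR adjusted p 0.068, SE 0.29) or 4.10-fold with a 95% interval of 2.55 to 6.58. Leaving out replicate 1 with glutamine gave 1.97 (edgeR adjusted p 0.00055, SE 0.29), and leaving out replicate 1 without glutamine gave 2.32 (edgeR adjusted p 0.0139).

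CCN1 is the closest relative of CCN2 among the members, a secreted protein that binds integrins, encoded on chromosome 1 from 85580761 to 85583962, plus strand (ENSG00000142871). Its level was 27.3, 27.8 and 33.6 CPM with glutamine and 41.1, 79.3 and 71.05 CPM without. The groups did not overlap, but the gap between the highest library with glutamine and the lowest without was smaller than the gap from that lowest library to the other 2 of its group. The means were 29.5 ± 3.50 and 63.8 ± 20.1 CPM (SD, n = 3), for a log2 fold change of 1.11 (edgeR adjusted p 0.0703, SE 0.24), or 2.16-fold with a 95% interval of 1.47 to 3.17. It was 1.06 (edgeR adjusted p 0.0052, SE 0.23) without replicate 1 with glutamine. Without replicate 1 without glutamine it was 1.35 (edgeR adjusted p 0.0496, where 0.073% of all genes were called).

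In these 3 genes replicate 1 with glutamine stayed on the side of its own group. Its log2 CPM was at -1.17, -1.62 and -2.09 from the mean without glutamine in CCN1, CCN2 and ANKRD1, and at -0.16, 0.60 and -0.22 from the mean of the other 2 libraries of its group. Over all genes tested, 62.1% lay nearer the other group in that library. Of the 10 members 5 lay nearer the other group, AMOTL2, AJUBA, LATS2, YAP1 and TEAD1, and 5 nearer their own, CCN1, CCN2, ANKRD1, AXL and WWTR1.

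**Figure D2:**
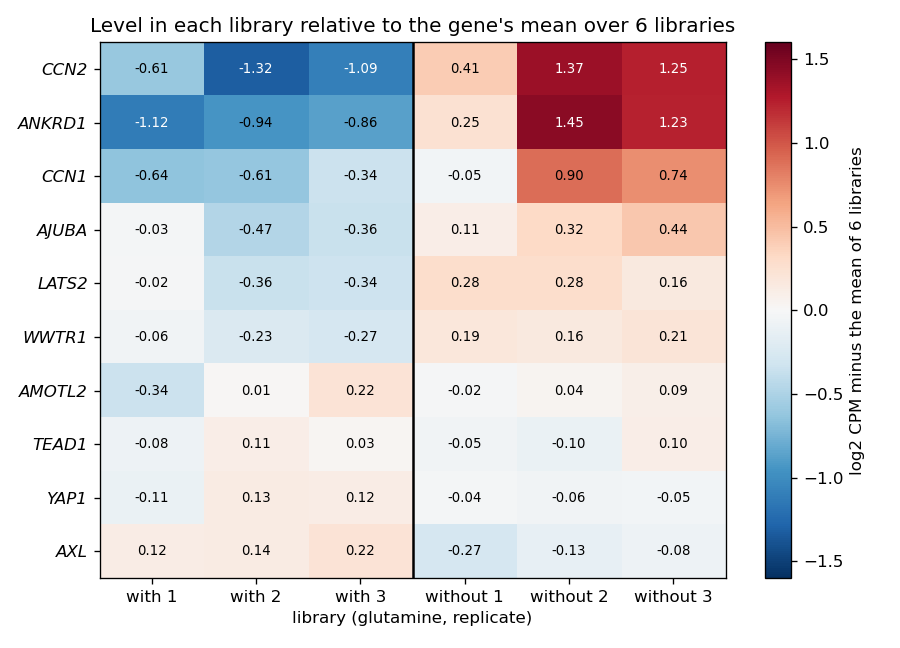
Colour and number give the log2 CPM of each gene in each library minus the gene's mean over the 6 libraries. CCN2 and ANKRD1 span 2.69 and 2.57 on this scale, while TEAD1 and YAP1 span 0.21 and 0.24.

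The pathway regulators among the targets differed less. AJUBA, a LIM-domain scaffold that binds the LATS kinases, was at 118, 86.9 and 93.9 CPM with glutamine and at 130.0, 150.5 and 163 CPM without. The groups did not overlap, and replicate 1 with glutamine was the library closest to the group without. Its log2 fold change was 0.57 (edgeR adjusted p 0.0725, SE 0.14), and 0.71 (edgeR adjusted p 0.00036, SE 0.098) without that library. AJUBA (ENSG00000129474) spans chromosome 14 from 22971174 to 22982642, minus strand.

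LATS2, a kinase that phosphorylates YAP and TAZ and is itself a YAP target, was at 29.9, 23.6 and 24.0 CPM with glutamine and at 36.9, 36.8 and 33.8 CPM without. The 2 groups did not overlap, and again replicate 1 with glutamine was the nearest. Its log2 fold change was 0.47 (edgeR adjusted p 0.0724, SE 0.11), or 0.59 (edgeR adjusted p 0.00027, SE 0.078) without that library. LATS2 (ENSG00000150457) spans chromosome 13 from 20973032 to 21061547, minus strand.

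AMOTL2, an angiomotin family scaffold that binds YAP and holds it outside the nucleus, was at 51.2, 65.4 and 75.2 CPM with glutamine and at 63.7, 66.6 and 69.1 CPM without. The 3 values without glutamine lay inside the range of those with it. The log2 fold change was 0.06 (edgeR adjusted p 0.807, SE 0.14), with a 95% interval of 0.832 to 1.30 in fold, and it turned to -0.079 without replicate 1 with glutamine (edgeR adjusted p 0.463). AMOTL2 (ENSG00000114019) spans chromosome 3 from 134355874 to 134375479, minus strand.

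AXL, a receptor tyrosine kinase of the TAM family, was the 1 target with lower values without glutamine. It was at 35.5, 35.8 and 37.9 CPM with glutamine and at 26.9, 29.7 and 30.8 CPM without, and no library of the second group reached the first. The log2 fold change was -0.32 (edgeR adjusted p 0.0787, SE 0.083), or 0.801-fold with a 95% interval of 0.700 to 0.916. With replicate 1 with glutamine left out it was -0.34 (edgeR adjusted p 0.0094, SE 0.082). AXL (ENSG00000167601) spans chromosome 19 from 41219203 to 41261766, plus strand.

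Of the factors, YAP1 was at 418, 493 and 488 CPM with glutamine and at 439, 433 and 436 CPM without. The group without glutamine was tight and lay between replicate 1 with glutamine and the other 2 libraries with it. The log2 fold change was -0.099 (edgeR adjusted p 0.431, SE 0.081), with a 95% interval of 0.819 to 1.06 in fold. Without replicate 1 with glutamine it was -0.17 (edgeR adjusted p 0.0506, SE 0.061), and all libraries without glutamine were then below both with it. YAP1 (ENSG00000137693) spans chromosome 11 from 102110461 to 102233423, plus strand.

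WWTR1, the gene of TAZ, was at 59.9, 53.4 and 51.9 CPM with glutamine and at 71.2, 69.9 and 72.3 CPM without, so the groups did not overlap. Its means were 55.1 ± 4.25 and 71.1 ± 1.19 CPM (SD, n = 3), for a log2 fold change of 0.37 (edgeR adjusted p 0.07, SE 0.078), or 1.29-fold with a 95% interval of 1.14 to 1.47. With replicate 1 with glutamine left out the log2 fold change was 0.44 (edgeR adjusted p 0.00068, SE 0.067). WWTR1 (ENSG00000018408) spans chromosome 3 from 149517235 to 149736714, minus strand. The 2 co-activators thus had estimates of opposite sign, and the difference between them was not tested.

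TEAD1, the DNA-binding partner, was at 132, 151 and 142 CPM with glutamine and at 135, 130.0 and 149.9 CPM without, with full overlap. Its log2 fold change was -0.037 (edgeR adjusted p 0.788, SE 0.084), with a 95% interval of 0.849 to 1.12 in fold. Without replicate 1 with glutamine it was -0.082 (edgeR adjusted p 0.431). TEAD1 (ENSG00000187079) spans chromosome 11 from 12674591 to 12944483, plus strand.

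**Figure D3:**
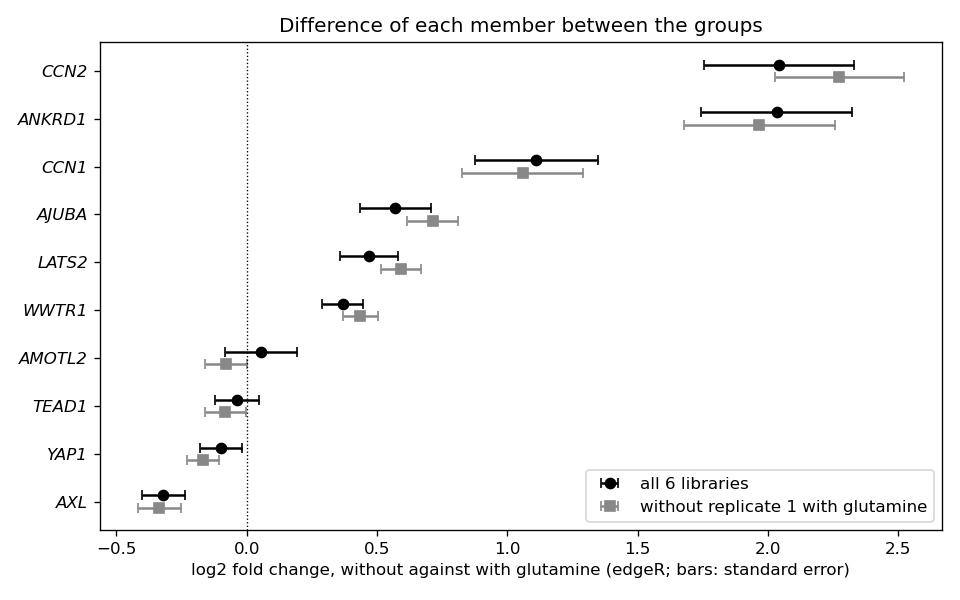
Log2 fold change without against with glutamine on the horizontal axis for each gene (edgeR), with bars of 1 standard error; black circles use all 6 libraries and grey squares leave out replicate 1 with glutamine. CCN2, ANKRD1 and CCN1 lie at 2.04, 2.03 and 1.11 with all libraries, AXL lies at -0.32, and AMOTL2 is on the other side of 0 without that library.

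Patterns over the 6 libraries were compared by the root mean square difference of log2 CPM after each gene was centred on its own mean. Genes that hardly vary are close to each other by this measure whatever their pattern, as YAP1 and TEAD1 were (0.075). Among the 3 genes with large differences, CCN2 and ANKRD1 were 0.29 apart, against 1.07 and 1.05 for the spread of each about its own mean. CCN1 was 0.45 from ANKRD1 and 0.54 from CCN2. LATS2 and WWTR1 were 0.091 apart, against own spreads of 0.27 and 0.20, and AJUBA was 0.14 from LATS2. CCN2 and AXL were the most distant pair, at 1.22. Without replicate 1 with glutamine CCN2 and ANKRD1 were 0.19 apart, CCN1 was 0.44 from ANKRD1 and 0.59 from CCN2, and CCN2 and AXL were 1.28 apart.

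Levels between genes were compared per kb of exon. With glutamine YAP1 was the highest, at 74.1 ± 6.64 CPM per kb (SD, n = 3), followed by CCN2 at 18.2 ± 4.76, AJUBA at 16.7 ± 2.74, TEAD1 at 13.8 ± 0.896, CCN1 at 12.0 ± 1.43 and AMOTL2 at 10.7 ± 2.02. ANKRD1 (7.18 ± 0.641), AXL (7.06 ± 0.257) and WWTR1 (6.55 ± 0.506) followed, and LATS2 was the lowest at 4.63 ± 0.632 CPM per kb. From CCN2 to AMOTL2, and again from ANKRD1 to WWTR1, each gene differed from the next by less than the sum of their SDs. AMOTL2 and ANKRD1, WWTR1 and LATS2, and YAP1 and CCN2 differed by more. Without glutamine CCN2 was at 75.1 ± 24.2 CPM per kb, level with YAP1 at 69.2 ± 0.485 within its SD. ANKRD1 was at 29.4 ± 11.3, CCN1 at 26.0 ± 8.20 and AJUBA at 24.7 ± 2.81, each less than the sum of the SDs from the others, followed by TEAD1 (13.4 ± 1.01) and AMOTL2 (11.1 ± 0.451). LATS2 was at 6.42 ± 0.317 and AXL was the lowest at 5.65 ± 0.393 CPM per kb. WWTR1 was far below YAP1 in both groups, at 6.55 and 8.45 CPM per kb. Without replicate 1 with glutamine the order with glutamine was the same, with CCN2 at 15.6 and AJUBA at 15.1 CPM per kb. With lengths of the longest transcript the order within a group changed. With glutamine AJUBA (23.4 ± 3.84) then stood above CCN2 (18.2 ± 4.76), AMOTL2 (14.15 ± 2.67) above CCN1 (12.9 ± 1.53), AXL (7.68 ± 0.28) above ANKRD1 (7.18 ± 0.641), and WWTR1 (10.95 ± 0.846) above both of these. Without glutamine YAP1 (80.7 ± 0.565) stood above CCN2 (75.1 ± 24.2) and AJUBA (34.7 ± 3.94) above ANKRD1 (29.4 ± 11.3).

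**Figure D4:**
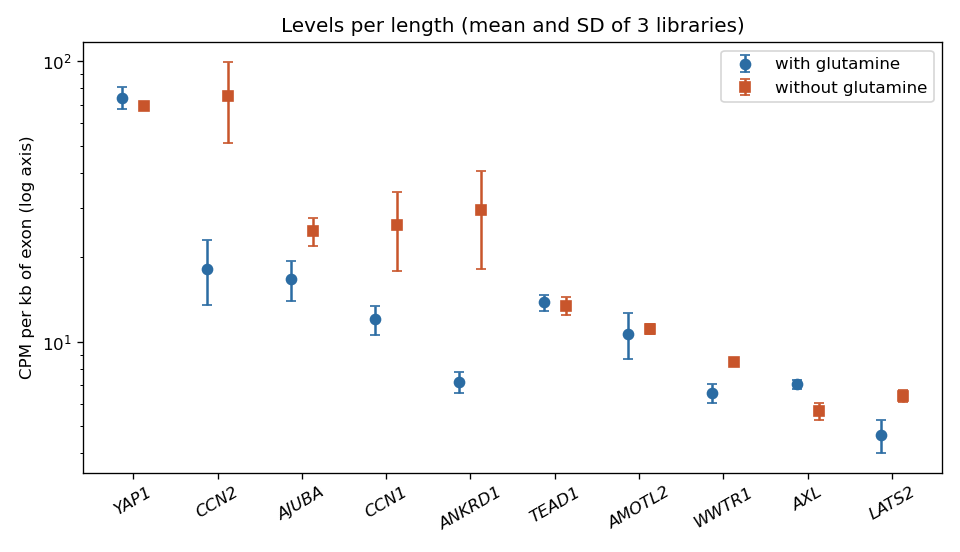
Mean level per kb of exon on a log axis, with bars of 1 SD over 3 libraries, with glutamine as blue circles and without as orange squares, ordered by the mean over all libraries. YAP1 is the highest with glutamine, and CCN2 reaches it without.

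Other genes of the pathway were read from lists of genes that are not members. None of the genes of these lists passed an edgeR or limma-voom adjusted p of 0.05 in all 6 libraries. A list of conserved YAP and TAZ targets had 15 of 16 genes tested, with 4 higher and 1 lower (33.3%, against 29.7% of all genes) at an unadjusted p under 0.05 from edgeR and a median log2 fold change of 0.27. The groups did not overlap for 4 of 15 (26.7%, against 34.2% of all genes). DESeq2 called 3 higher and 1 lower (26.7%, against 14.4%). Leaving out replicate 1 with glutamine, edgeR called 6 higher and 3 lower (60%, against 41.3%), with a median of 0.088. FJX1, a regulator of planar polarity, was at 12.3 ± 2.92 and 27.6 ± 5.38 CPM (SD, n = 3; log2 fold change 1.16, edgeR adjusted p 0.068). TGFB2, a TGF-beta ligand, was at 11.5 ± 3.43 and 25.4 ± 7.47 CPM (1.15, edgeR adjusted p 0.077). CRIM1, a membrane protein that binds growth factors, was at 87.8 ± 19.9 and 129 ± 3.47 CPM (0.55, edgeR adjusted p 0.0827). The 4 genes of this list with the highest levels had estimates at or below 0.04: PTPN14 (-0.043), a phosphatase that restrains YAP, ARHGEF17 (-0.096), ASAP1 (-0.41) and CCDC80 (0.04).

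Of 18 Hippo kinases and upstream regulators, all tested, 2 were higher and 4 lower at an unadjusted p under 0.05 from edgeR (33.3%, against 29.7% of all genes), with a median log2 fold change of -0.048. The groups did not overlap for 5 of 18 (27.8%, against 34.2%). DESeq2 called 1 higher and 0 lower (5.56%, against 14.4%). LATS1, the paralog of LATS2, was at 70.5 ± 9.28 and 57.0 ± 1.43 CPM (SD, n = 3), for a log2 fold change of -0.31 (edgeR adjusted p 0.115), opposite in sign to LATS2. TAOK1, a kinase that activates MST1/2, had -0.36 (edgeR adjusted p 0.0902). WWC1, or KIBRA, a scaffold that promotes LATS activity, had 0.67 (edgeR adjusted p 0.0902). MAP4K4 (-0.30), a kinase acting beside MST1/2, and the cadherin genes FAT1 (-0.053) and DCHS1 (-0.042) were among the genes with the highest mean CPM in this list. With replicate 1 with glutamine left out edgeR called 4 higher and 6 lower (55.6%, against 41.3% of all genes).

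Among TEAD paralogs and partners of YAP and TEAD, 9 of 11 genes were tested, and the median log2 fold change was 0.047. At an unadjusted p under 0.05 from edgeR 1 was higher and 1 lower (22.2%, against 29.7% of all genes), and the groups did not overlap for 2 of 9 (22.2%, against 34.2%). DESeq2 called 1 higher (11.1%, against 14.4%), and edgeR without replicate 1 with glutamine called 2 higher and 1 lower (33.3%, against 41.3%). TEAD2 was the TEAD gene with the highest level per length, at 66.8 ± 3.39 CPM per kb with glutamine and 67.3 ± 4.64 without (SD, n = 3). TEAD3 followed at 17.4 ± 2.40 and 19.9 ± 1.38, TEAD1 at 13.8 ± 0.896 and 13.4 ± 1.01, and TEAD4 at 5.12 ± 0.521 and 6.14 ± 0.687 CPM per kb. The log2 fold change was 0.011 for TEAD2 and 0.26 for TEAD4 (edgeR adjusted p 0.937 and 0.207). VGLL3, a co-factor that competes for TEAD, was at 4.89 ± 0.887 and 8.71 ± 1.84 CPM (0.83, edgeR adjusted p 0.0749). AMOT, the founding angiomotin, was at 626 ± 65.1 and 503 ± 34.2 CPM (-0.32, edgeR adjusted p 0.0983), while AMOTL1 had 0.047 and the TEAD repressor VGLL4 -0.09.

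CCN1, CCN2 and ANKRD1 are also known to respond to SRF, which acts with actin-regulated co-factors, and to AP-1. Of 14 SRF-linked cytoskeletal genes, all tested, 8 were higher and 0 lower at an unadjusted p under 0.05 from edgeR (57.1%, against 29.7% of all genes), with a median log2 fold change of 0.42. Without overlap were 5 of 14 (35.7%, against 34.2%). DESeq2 called 6 higher (42.9%, against 14.4%), and edgeR without replicate 1 with glutamine called 7 higher and 1 lower (57.1%, against 41.3%). ACTA2, smooth muscle actin, was at 14.1 ± 1.85 and 80.8 ± 29.8 CPM (SD, n = 3; 2.52, edgeR adjusted p 0.068). ACTG2, a second smooth muscle actin, was at 3.26 ± 1.54 and 31.6 ± 13.1 CPM (3.27, edgeR adjusted p 0.068), and the actin crosslinker ACTN1 had 0.62 (edgeR adjusted p 0.068). The non-muscle myosin MYH9 had 0.40 and tropomyosin TPM1 0.97 (both edgeR adjusted p 0.068), the vinculin gene VCL 0.26 and filamin FLNA 0.069, which was -0.0065 without replicate 1 with glutamine. SRF itself was at 76.5 ± 3.25 and 79.4 ± 1.66 CPM, for a log2 fold change of 0.054.

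As in CCN1, CCN2 and ANKRD1, replicate 1 was the lowest library without glutamine for ACTA2, at 46.6 CPM against 101 and 94.4 in the other 2. Of 9 AP-1 and immediate early genes, all tested, 3 were higher and 0 lower at an unadjusted p under 0.05 from edgeR (33.3%, against 29.7% of all genes), with a median log2 fold change of 0.38. Without overlap were 3 of 9 (33.3%, against 34.2%). DESeq2 called 2 higher (22.2%, against 14.4%), and edgeR without replicate 1 with glutamine called 4 higher (44.4%, against 41.3%). FOSL2 had 0.78 (edgeR adjusted p 0.068), JUNB 0.59 (edgeR adjusted p 0.0681) and JUN 0.66 (edgeR adjusted p 0.162). JUND and EGR1, among the highest of this list by mean CPM, had 0.38 and 0.29. Leaving out replicate 1 with glutamine gave 1.09 for JUN and 0.62 for EGR1.

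**Figure D5:**
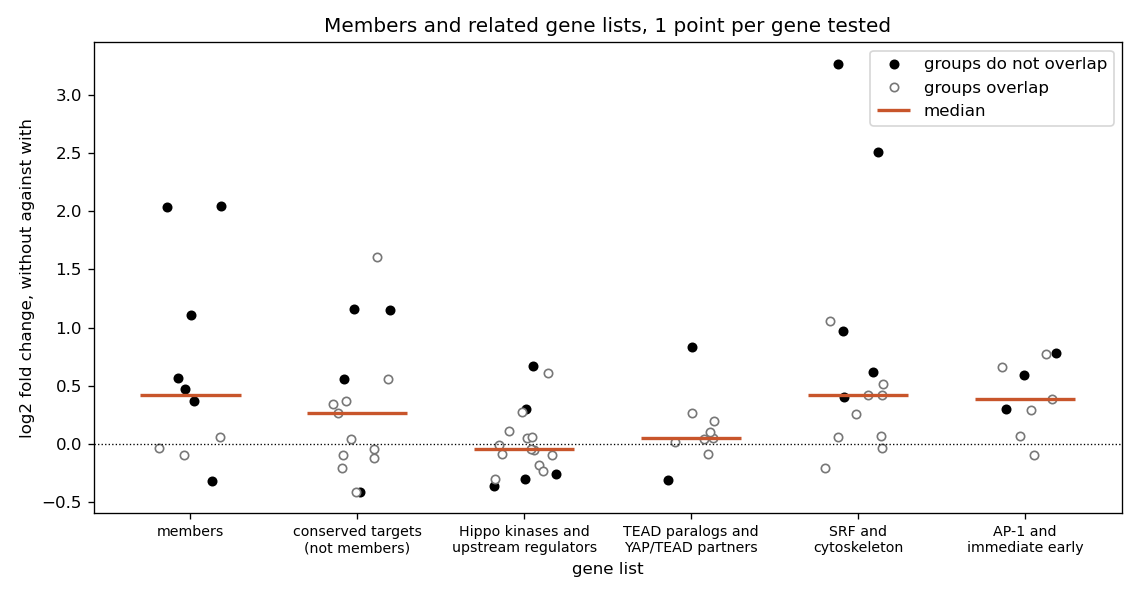
Log2 fold change without against with glutamine of each gene tested (vertical axis), by list; filled points are genes whose groups do not overlap, open points those whose groups overlap, and orange lines are medians. The medians are 0.42 for the members, 0.27 for conserved targets, -0.048 for Hippo regulators, 0.047 for partners, 0.42 for SRF-linked genes and 0.38 for AP-1 genes.

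Levels of markers of other cell types are described next. None of the markers tested had an edgeR or limma-voom adjusted p under 0.05 in all 6 libraries. The summed level of 7 smooth and cardiac muscle markers, 3 of which are also on the SRF list, was 101 to 167 CPM with glutamine and 219 to 476.5 without. The groups did not overlap for 2 of the 7 (28.6%, against 34.2% of all genes), ACTA2 and cardiac actin ACTC1. ACTC1 was at 42.9 ± 12.2 and 139 ± 52.1 CPM (SD, n = 3), for a log2 fold change of 1.70. The smooth muscle myosin MYH11 was at 1.18 ± 0.758 and 2.54 ± 0.717 CPM (log2 fold change 1.09), TAGLN at 65.9 ± 18.8 and 137 ± 50.4 CPM, and CNN1 at 10.3 ± 1.28 and 13.8 ± 3.49 CPM. The cardiac markers TNNT2 (0.443 ± 0.212 and 0.309 ± 0.0203 CPM) and MYH6 (0.368 ± 0.195 and 0.1265 ± 0.0321 CPM) were under 1 CPM in every library.

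The sum of 7 stromal markers was 764 to 1531 and 1541 to 2427 CPM, and 764 to 845 with glutamine when replicate 1 was left out. COL1A1 (316 ± 120.4 and 513 ± 71.1 CPM), COL3A1 (312 ± 248 and 1017 ± 293 CPM) and PDGFRA made up most of it. The renal stroma marker FOXD1 had lower values without glutamine, at 2.21 ± 1.24 and 0.576 ± 0.0599 CPM with no overlap, and PDGFRB was at 163.5 ± 17.6 and 144 ± 15.6 CPM. The sum of 4 epithelial markers was 102 to 171 and 246 to 286 CPM, and that of 5 endothelial markers 29.6 to 88.0 CPM with glutamine and 17.7 to 23.1 without. KDR gave most of the endothelial sum, at 58.8 ± 30.5 and 14.6 ± 2.58 CPM (SD, n = 3). PECAM1 and CDH5 were also lower without glutamine. TEK (1.95 ± 0.544 and 2.55 ± 0.604 CPM) and VWF (0.953 ± 1.04 and 1.73 ± 0.350 CPM) had higher means without it.

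For 4 lists the sums overlapped between the groups through replicate 1 with glutamine alone. The 11 nephron progenitor markers were at 817 to 1016 and 956 to 1219 CPM, and at 817 to 860.5 with glutamine when that library was left out. The 6 somite markers were at 60.7 to 194 and 64.0 to 83.8 CPM, or 185 to 194 with glutamine when it was left out. The 5 neural markers were at 16.8 to 28.4 and 17.4 to 22.5 CPM, or 25.7 to 28.4, and the 4 endoderm markers at 1.74 to 3.36 and 2.34 to 2.72 CPM, or 1.74 to 1.78. With that library left out, all 9 marker sums were apart between the groups. Of all genes, taken singly, 63.3% were then apart. A sum can hide genes that go opposite ways. In all 6 libraries the edgeR estimates of tested nephron progenitor markers were 6 above 0 and 5 below. They were 0 and 5 for somite, 2 and 3 for neural, and 1 and 1 for endoderm markers. Of the 4 pluripotency markers, with a sum of 113 to 184 and 212 to 269 CPM, DPPA4 gave nearly all, and NANOG and TDGF1 had at most 10 counts in any library. No marker was at 0 counts in all 6 libraries. The part of these cell types in the levels of the 10 genes was not tested.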

How the data were processed

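The measurement used is the deposited raw count of reads for each Ensembl gene in 6 libraries, 3 with and 3 without glutamine. The submitters' processing notes name cutadapt, Trim Galore, FastQC, STAR 2.5.2b, DESeq2 and the build GRCh38, with no role or order. The counting program, annotation release and strand setting are not given in the sources used here. CCN2, AMOTL2 and WWTR1 share exon bases with genes that had at most 33 counts in any library. AJUBA, AXL and YAP1 overlap genes not analysed here.

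Symbols came from the reference name table and positions and lengths from GENCODE 29 on GRCh38. The main test was the quasi-likelihood F test of edgeR 4.0.16 under R 4.3.3 (robust = FALSE, legacy = FALSE), after filterByExpr and TMM scaling, with Benjamini-Hochberg adjustment over 22613 genes holding 99.95% of counts and a threshold of 0.05. The standard error is the absolute log2 fold change divided by the square root of F. Alternatives were other scalings and filters, legacy = TRUE, robust = TRUE, DESeq2 1.42.0, limma-voom (limma 3.58.1), a replicate block and leaving out each library. The test was tested on simulated counts.

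The members, lists and tests were chosen with earlier results of these data known. Named genes are the members and, from each related list, the 4 highest by mean CPM (not divided by length) and the 3 smallest by p. SRF, TEAD3 and single cell type markers are named besides, after their values were seen. For CCN1, CCN2 and YAP1 the 5 genes with the nearest pattern, among those with a mean of at least 50 counts, are named in the closing section. Log2 CPM used a prior count of 2. Sums, levels per length and distances without replicate 1 with glutamine were added after seeing the data.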

Additional observations from a re-analysis of the deposited data

How the results depend on the processing

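For the 10 genes, 141 of 160 values under the alternatives had the same sign and the same call as reported, 16 passed the threshold only under the alternative and 3 reversed. The alternatives that called members were DESeq2 (7 members, and 3065 of all genes) and leaving out 1 library. The number of members called ran from 0 to 7 over the 6 fits that each left out 1 library, with 7 without replicate 1 with glutamine, 2 (CCN1 and ANKRD1) without replicate 1 without glutamine, and 0 in the other 4. The number of all genes called ran from 0 to 9573 over those fits. It was 0 under upper quartile scaling, library size only, legacy = TRUE, limma-voom and the replicate block, and 2 with no filter on low counts. The cause was not tested. AMOTL2 ran from -0.079 to 0.19 on the log2 scale with 1 library left out, below 0 without replicate 1 with glutamine. TEAD1 ran from -0.10 to 0.0092, above 0 without replicate 2 of either group (6.3e-05 and 0.0092). The median of the members stayed between 0.37 and 0.51, and 7 or 8 members had no overlap between groups under every scaling, filter and left-out library. Over all genes the share without overlap was 34.2% with 6 libraries and 63.3% without replicate 1 with glutamine. That share was not computed for the other settings, and groups separate more easily when 1 library is left out. With upper quartile scaling the median over all genes was -0.043. The order of levels per length, averaged over the 6 libraries, was the same for all 10 genes with the longest transcript. Same-numbered libraries did not deviate together (correlations of -0.021, 8.8e-05 and 0.028). With the replicate block 0 members and 0 genes were called.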

Other observations

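Over the 6 libraries, the 5 genes whose centred log2 CPM lay nearest to that of CCN1, among 16880 candidates, were ATF5 (root mean square difference 0.082), ASNSP1 (0.11), TPM1 (0.13), CADPS2 (0.14) and GLIPR1 (0.14), against a spread of 0.61 of CCN1 about its own mean. ATF5 is a transcription factor of the amino acid and stress response, and it was at 12.1, 14.2 and 16.2 CPM with glutamine and 21.0, 36.9 and 31.98 without. ASNSP1 is a pseudogene of ASNS, with which it can share reads, so its counts are uncertain. TPM1, a tropomyosin on the SRF list, was at 184, 170 and 192 CPM with glutamine and 261, 411 and 397 without. In each of these 3 genes replicate 1 was the lowest library without glutamine, as in CCN1. This largely follows from their selection, because they were picked for nearness to CCN1 over the same 6 libraries.

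For CCN2 the nearest were TM4SF1 (0.14), BDNF (0.17), AGTR1 (0.18), CHAC1 (0.19) and ANXA1 (0.21), against its own spread of 1.07. BDNF, a neurotrophin, was at 3.43, 1.79 and 1.95 CPM with glutamine and 6.92, 9.67 and 10.1 without. CHAC1, which breaks down glutathione, was at 3.22, 1.80 and 2.46 CPM and at 6.78, 10.2 and 8.85. ANXA1, a membrane-binding annexin, was at 9.24, 7.81 and 9.62 CPM and at 18.7, 42.3 and 39.8. For YAP1 the nearest were WASL (0.011), TLK1 (0.014), KBTBD6 (0.014), RBMX (0.017) and PDZD8 (0.018), against its own small spread of 0.09. WASL, an activator of actin branching, was at 74.1, 89.5 and 87.6 CPM with glutamine and 78.8, 77.1 and 78.5 without. These distances are descriptions over 6 libraries. Without replicate 1 with glutamine the same genes lay at 0.074 to 0.14 from CCN1, 0.12 to 0.20 from CCN2 and 0.0085 to 0.017 from YAP1.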
